A study of Mus musculus with 219 samples.

Results

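Growth factors, neurotrophins and synaptic activity reach the nucleus of a neuron largely through the ERK cascade, in which a receptor tyrosine kinase activates Ras, Ras activates Raf, and the kinases MEK and ERK follow in turn. Active ERK switches on genes that then switch ERK off. The genes described here are 9 of these feedback inhibitors, from the 55487 genes of the count tables. They and the gene lists used below were chosen by name, with earlier results of these data known. The 9 are the MAP kinase phosphatases Dusp1, Dusp4, Dusp5, Dusp6 and Dusp14, and the Sprouty family members Spry2, Spry4, Spred1 and Spred2. The Dusp proteins remove phosphate from MAP kinases themselves. Dusp1, Dusp4 and Dusp5 do so in the nucleus, Dusp5 with a strong preference for ERK, while Dusp6 acts on ERK in the cytoplasm. Dusp14 is a small phosphatase of the atypical class. Sprouty and Spred proteins act further upstream, between the receptor and Raf. In cortex several of these genes are known as activity-induced genes, with transcripts that appear and decay quickly.

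The values are read counts from total RNA of left prefrontal cortex of mice. The first table is a daily atlas of WT/WT mice (Snord116+/+Ctg-/-) of about 12 weeks, kept in home cages under 12:12, a cycle of 12 h light followed by 12 h dark, in which they were sampled at 8 zeitgeber times (ZT, hours after lights on), 3 h apart. It holds 92 libraries, with 6 of each sex at each time except 5 at ZT18 and ZT21. The second table holds mice collected at ZT6, of 4 genotypes. Beside WT/WT these are HET/WT, which is Snord116+/-Ctg-/-, then WT/TG, which carries the allele that the labels write Ctg, as Snord116+/+Ctg+/-, and lastly HET/TG, with both, as Snord116+/-Ctg+/-. They entered light-controlled incubators at about 8 weeks, acclimated for 7 days and lived at 22 °C on 12:12 or on 11 h of light and 11 h of dark (11:11). A running wheel set spent 15 days there and 7 more in wheel cages, and was collected in the light-dark cycle (L:D). A calorimetry set went after 22 days into chambers for indirect calorimetry and was collected in constant darkness (D:D). Set, apparatus and light at collection therefore cannot be told apart. In constant darkness there is no lights on, so ZT6 in the calorimetry set is the time that the labels give. The 32 groups by set, sex, cycle and genotype had 4 libraries each, except for 3 in calorimetry males on 11:11 and in wheel males on 12:12, both WT/TG, which gave 126 libraries. The labels list 127 such samples, of which 1 of the wheel males is not analysed here. The labels call the samples biological replicates.

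Depth ran from 12.996 to 18.4 M (mega) counts per library in the atlas and from 12.7 to 29.9 M counts at ZT6. Snhg14, the host transcript of Snord116, lay between 20.2 and 69.3 CPM (counts scaled to a common library total) in the HET/WT and HET/TG libraries and between 115.9 and 280.6 CPM in those without the deletion, apart from the library labelled HET/WT replicate 3 of wheel females on 11:11, at 167.3 CPM, which goes against its label. A WT/TG library of the same wheel females (replicate 1) had 5.61% of its counts in ribosomal RNA-like genes. Results at ZT6 were recomputed without each. Defining markers of excitatory cortical neurons were present in every library, with a summed level of 3206 to 4449 CPM in the atlas and 3597 to 7035 CPM at ZT6. No marker on the list for any cell type was at 0 throughout. The summed striatal neuron markers ranged from 93.7 to 1180 CPM in the atlas and from 105 to 1110 CPM at ZT6. In bulk tissue, fewer cells of a type and less RNA per cell cannot be told apart.

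The start regions of Dusp1 and Dusp5 are shown because both genes fell steeply after lights on, and because only theirs, of the 7 members with an entry, held any of the sequence motifs searched for. The sequences are from RefSeq on the GRCm38.p6 build and cover the 200 bases from 250 to 51 before the transcription start, 5′ to 3′ on the gene's strand. Capitals mark matches on either strand to the cyclic AMP response element (TGACGTCA), its core (TGACG, which the full element contains), the E-box (CACGTG) and the CArG box, the binding motif of serum response factor.
Dusp1, chr17:26508523-26508722, minus strand: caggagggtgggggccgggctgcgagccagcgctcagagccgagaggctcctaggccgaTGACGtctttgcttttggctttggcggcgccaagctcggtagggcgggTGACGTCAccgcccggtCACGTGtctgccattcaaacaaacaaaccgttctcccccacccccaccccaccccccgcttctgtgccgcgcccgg
Dusp5, chr19:53528895-53529094, plus strand: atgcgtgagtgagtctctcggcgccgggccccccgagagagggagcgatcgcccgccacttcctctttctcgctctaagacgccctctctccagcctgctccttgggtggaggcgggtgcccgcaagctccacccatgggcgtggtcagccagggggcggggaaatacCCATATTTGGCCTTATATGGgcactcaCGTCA
In Dusp1 the full cyclic AMP response element lies at −143 to −136, a further core at −191 to −187 and an E-box at −126 to −121. In Dusp5 a pair of adjoining CArG boxes fills −82 to −63, and a core on the opposite strand ends the window at −51. Of 32851 windows of this length, 0.828% hold the full element, 12.7% its core, 4.34% the E-box and 1.16% a CArG box. The AP-1 site (TGACTCA or TGAGTCA; 3.61% of windows) and the glucocorticoid response element (0.332%) were in none of the 7. A match is a run of letters and not a measured binding site.

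All 9 genes passed the low-count filter in both tables. On a scale that allows genes to be compared (RPKM, reads scaled by gene length and library depth), Spred1, Spry2 and Spred2 led in the atlas. The mean level was 38.2 RPKM for Spred1, 29.1 for Spry2 and 24.1 for Spred2. Dusp14 and Dusp6 followed at 18.5 and 17.98 RPKM. Dusp1 stood at 7.18 RPKM, and Dusp5, Dusp4 and Spry4 were the scarcest at 3.83, 3.37 and 3.26 RPKM. Dusp1 (ENSMUSG00000024190) spans chr17:26505590-26562128, Dusp4 (ENSMUSG00000031530) chr8:34807297-34819894, Dusp5 (ENSMUSG00000034765) chr19:53529109-53542431 and Dusp6 (ENSMUSG00000019960) chr10:99263231-99267489. Dusp14 (ENSMUSG00000018648) spans chr11:84048041-84069261, Spry2 (ENSMUSG00000022114) chr14:105891947-105896819 and Spry4 (ENSMUSG00000024427) chr18:38586247-38601415. Spred1 (ENSMUSG00000027351) spans chr2:117121374-117182279 and Spred2 (ENSMUSG00000045671) chr11:19924375-20024026, all on GRCm38. Dusp5 shares 547 of its 2473 exon bases with the antisense gene AC137853.2, and the strand setting of the counting is not given in the sources used here. Its values are to that extent uncertain. AC137853.2 itself was counted at 0.462 ± 0.241 CPM (SD, n = 92) in the atlas.

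All 9 feedback genes were expressed rhythmically over the day, with fitted peaks in the dark. A 24 h cosine fitted with sex to the 92 atlas libraries passed the test in 9 of 9 members (edgeR quasi-likelihood test, Benjamini-Hochberg adjusted p from 4.05e-15 for Spred1 to 0.0125 for Dusp1). Of all 17193 genes tested, 41.4% passed. Dark-phase peaks among passing genes made up 20.1% of all genes tested. The members' fitted peaks lay between ZT17.3 (Dusp14) and ZT20.3 (Dusp4), with a median of ZT18.6. Their median peak-to-trough fold was 1.55, beside 1.10 over all genes tested and 1.14 over the genes that passed.

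Dusp4 and Spry4 had the largest fitted folds, while Dusp1 had the largest ratio of highest to lowest time mean (2.35, against 1.94 and 1.89). Dusp4, a nuclear phosphatase, was highest at ZT18, with a lowest, median and highest library of 9.40, 12.2 and 15.8 CPM. At ZT12, the time of lights off, its libraries ran from 4.66 through 6.03 to 9.65 CPM. The group means were 12.3 ± 2.06 CPM (SD, n = 10) and 6.35 ± 1.36 CPM (SD, n = 12), and the ranges touched only at their ends. The fitted peak-to-trough fold of Dusp4 was 1.97 (95% interval 1.67 to 2.31; edgeR adjusted p = 1.44e-09). Spry4, the scarcer Sprouty, was highest at ZT18 (14.8, 20.5 and 25.8 CPM for the lowest, median and highest library) and lowest at ZT6 (9.07, 10.3 and 18.2 CPM). Only the upper end of the ZT6 libraries reached into the ZT18 range. Its fitted fold was 1.79 (1.58 to 2.04; edgeR adjusted p = 9.31e-11).

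Dusp1, the immediate-early phosphatase that acts on p38 and JNK as well as ERK, did not follow a smooth wave. It was highest at lights on (ZT0), where its libraries ran from 22.1 through 33.9 to 49.0 CPM. At ZT3 they ran from 8.72 through 12.1 to 26.9 CPM. The groups overlapped only at the top of ZT3, and the means were 34.7 ± 7.64 and 14.7 ± 5.86 CPM (SD, n = 12 each). The fitted fold was 1.55 (1.22 to 1.97), with a fitted peak at ZT17.8 that lies away from the highest time. A test with time as a factor of 8 levels, which assumes no wave, also passed in 9 of 9 members, beside 5830 of all 17193 genes. The cosine test of Dusp1 no longer passed without replicate 1 (edgeR adjusted p = 0.0660) or without replicate 6 (0.0559), with a peak-to-trough log2 difference of 0.59 and 0.57 against 0.63 in all libraries. Dusp5 was also highest at ZT0, at 12.8 ± 2.24 CPM, and lowest at ZT6, at 6.79 ± 1.64 CPM (SD, n = 12 each), with a fitted fold of 1.56 (1.34 to 1.82).

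Dusp6, the cytoplasmic ERK phosphatase, shared that shape at a higher level. Its ZT0 libraries ran from 47.0 through 75.4 to 89.1 CPM and its ZT6 libraries from 33.9 through 36.9 to 68.6 CPM. A single ZT6 library at 68.6 CPM, from a female, stood within the ZT0 range while the others of that time were near the median. The fitted fold was 1.61 (1.41 to 1.84; edgeR adjusted p = 1.17e-07). Dusp14 moved less: its libraries ran from 37.02 through 40.7 to 49.2 CPM at ZT15 and from 26.9 through 31.8 to 38.3 CPM at ZT6, and the fitted fold was 1.24 (1.14 to 1.36).

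The more abundant upstream inhibitors had shallow but tight rhythms. Spred1, which brings the Ras inactivator neurofibromin to the membrane, was the only member whose highest and lowest times did not overlap: from 277 through 294 to 316 CPM at ZT18 against 198 through 229.6 to 254 CPM at ZT6. Its fitted fold was 1.29 (1.23 to 1.34), the smallest adjusted p of the 9. Spred2 averaged 131 ± 9.86 CPM at ZT15 and 95.6 ± 9.30 CPM at ZT6 (SD, n = 12 each; fitted fold 1.28, 1.20 to 1.37). Spry2 averaged 68.9 ± 5.12 CPM at ZT18 (SD, n = 10) and 55.0 ± 4.45 CPM at ZT6 (SD, n = 12), with the smallest fitted fold of the members, 1.22 (1.15 to 1.28). In the order of the 8 time means, most neighbours were closer than their spread: in 7 members no adjoining pair differed by more than the larger SD of the pair, and in Dusp6 and Spred1 1 pair of 7 did.

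**Figure D1:**
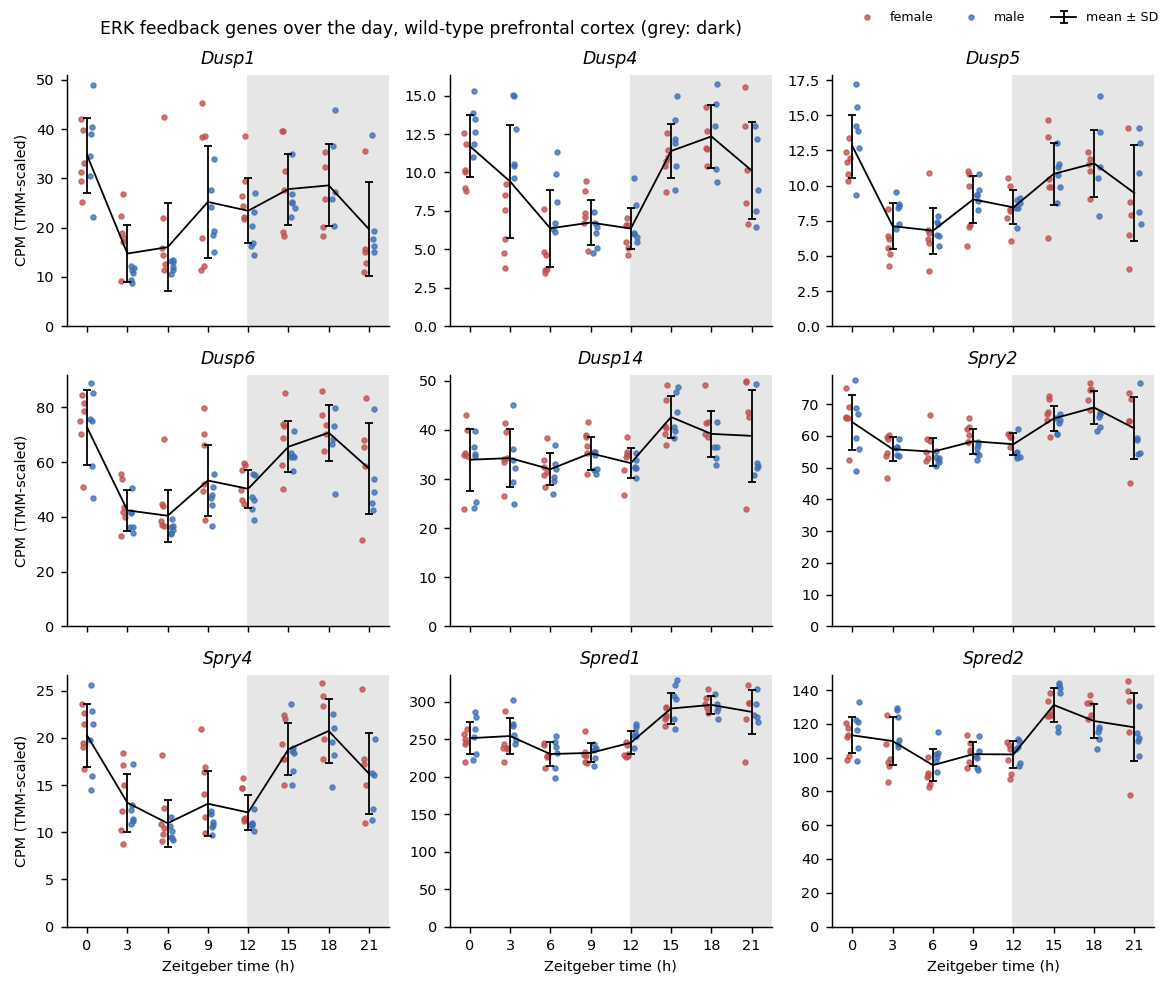
Level of each of the 9 genes (CPM) against zeitgeber time in the atlas, with a point for each library, females and males in different colours, and the mean of each time joined by a line with bars of 1 SD (n = 12, or 10 at ZT18 and ZT21). The mean of every gene is lower at ZT6 than at ZT15 and ZT18. Dusp1, Dusp5 and Dusp6 have their highest mean at ZT0.

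**Figure D2:**
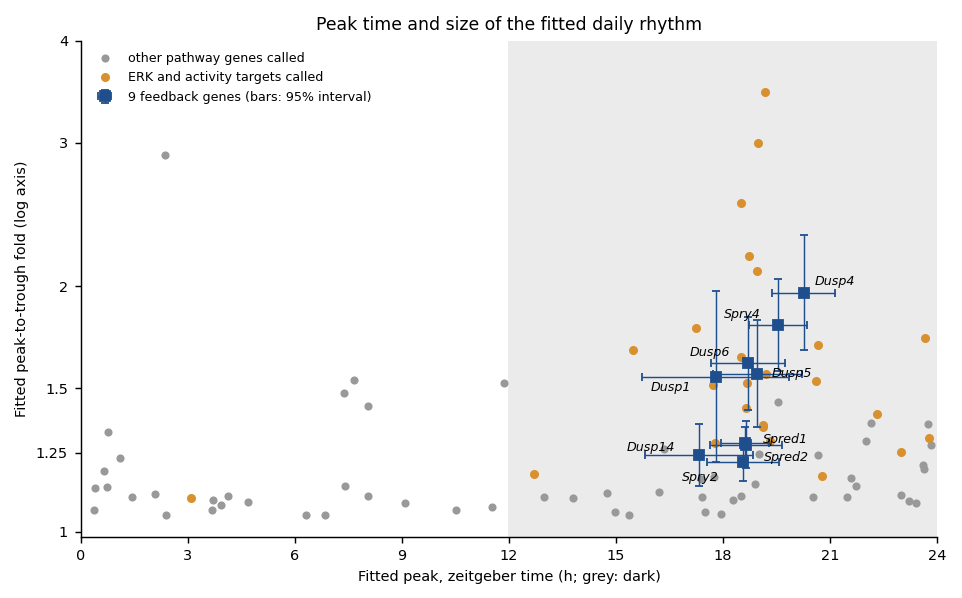
Fitted peak time (h, horizontal) against fitted peak-to-trough fold (log axis, vertical) for the 9 members with 95% intervals, with the rhythmic genes of the ERK target list (orange) and of the other pathway lists (grey) for comparison. The members lie between ZT17.3 and ZT20.3, with folds from 1.22 to 1.97.

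Comparing neighbouring times, a contrast added after the data had been seen, gave the most calls among the members across lights off and after lights on. From ZT12 to ZT15, across lights off, 7 of 9 rose, beside 4.81% of all genes. The log2 difference was 0.84 ± 0.15 (SE) for Dusp4, 0.64 ± 0.11 for Spry4, 0.38 ± 0.11 for Dusp6, 0.36 ± 0.08 for Dusp14, 0.36 ± 0.06 for Spred2, 0.25 ± 0.04 for Spred1 and 0.19 ± 0.05 for Spry2. Dusp1 (0.25 ± 0.20) and Dusp5 (0.35 ± 0.13) did not pass the test. The calls of Dusp6 and Spry2 were lost without replicate 2, and Dusp5 passed without replicate 4. From ZT0 to ZT3, after lights on, 5 of 9 fell, beside 1.58% of all genes. Here Dusp1 fell by 1.27 ± 0.21 on the log2 scale, the largest step of any member. Dusp5 fell by 0.85 ± 0.13, Dusp6 by 0.78 ± 0.11, Spry4 by 0.63 ± 0.11 and Spry2 by 0.20 ± 0.05. The call of Spry2 was lost without replicate 2, 3 or 5. Dusp4, at −0.32 ± 0.14, did not pass, and neither did the Spred genes and Dusp14, with differences of 0.02 ± 0.04 (Spred1), −0.05 ± 0.06 (Spred2) and 0.01 ± 0.08 (Dusp14).

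Other steps held fewer calls. From ZT3 to ZT6, Dusp4 fell by 0.57 ± 0.15, Spred2 by 0.20 ± 0.06 and Spred1 by 0.14 ± 0.04, 3 of 9 beside 2.35% of all genes. This count dropped to 1 with a covariate for the gene-length slope, a proxy for RNA quality defined below. It dropped to 0 without replicate 1, 3 or 5. From ZT21 to ZT0, Dusp1 rose by 0.81 ± 0.21 and Spred1 fell by 0.19 ± 0.04, 2 of 9 beside 1.2% of all genes, and 0 without replicate 2 or 5. Dusp1 did not pass in this step without replicate 4 or without the low-count filter either. In the other 4 steps no member passed, beside 0.204% of all genes from ZT6 to ZT9, 0.111% from ZT9 to ZT12, 0.163% from ZT15 to ZT18 and 0.0116% from ZT18 to ZT21. The spread at ZT21 was wide for several members, as in Dusp6, whose libraries ran from 31.4 through 56.2 to 83.6 CPM. No member's rhythm differed between the sexes (0 of 9, beside 0.0756% of all genes; 2 of 9 at an unadjusted p under 0.05).

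Most genes on the list of ERK targets were rhythmic with a peak in the dark as well. On a list of 29 ERK target and activity-induced genes, 25 were rhythmic, beside 41.4% of all genes, of which 24 had a fitted peak in the dark, with a median peak-to-trough fold of 1.42. Egr1, a transcription factor induced within minutes of ERK activation, had a fitted fold of 2.18 with a peak at ZT18.7. Etv5, a growth factor target, had 1.35 at ZT19.1, Egr3 1.53 at ZT20.6 and Phlda1 1.29 at ZT19.3. Among 15 other brakes of the pathway 10 were rhythmic (median fold 1.10). The smallest p there were those of Spry3, at 1.44 and ZT19.5, and Spred3, at 1.29 and ZT22.0, both relatives of the members. Of 13 other phosphatases 9 were rhythmic (median 1.09), with Dusp18 at 1.20 and ZT23.6 and Dusp7 at 1.12 and ZT14.7. Their peaks fell in the light in 6 of the 9.

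Ligands, receptors and kinases had rhythmic members of both phases. Of 16 ligands 7 were rhythmic, a share near the 41.4% of all genes: Bdnf, a neurotrophin made on activity, had a fold of 1.36 with a peak at ZT22.1, and Ntf3 one of 2.90 at ZT2.4. Of 14 receptors 9 were rhythmic, among them Igf1r (1.17, ZT17.8) and Kdr (1.36, ZT23.7). Of 26 genes of the cascade from adaptor to ERK and its kinases 15 were rhythmic, with a median fold of 1.06 over the list, below the 1.10 of all genes tested. Rps6ka2, a kinase that ERK activates, had the smallest p there (1.24, ZT20.7), and Rap1a, a small GTPase, peaked in the light (1.09, ZT4.7). Of 11 p38 and JNK genes 7 were rhythmic, with a median fold of 1.09.

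The genes whose pattern was most like a member's were sought over the means of the 16 time and sex groups. These are correlations of group means over genes in the same libraries and are a description. Dusp1 was closest to Junb (Pearson r = 0.95), Dusp4 to Nr4a3 (0.96), Dusp6 to Nr4a1 (0.98) and Spry2 to Gpr3 (0.94). Spry4 was closest to Ppp2r1b (0.97), Spred1 to Shprh (0.96), Spred2 to Sec23ip (0.95), Dusp14 to Synpo (0.92) and Dusp5 to Zfp27 (0.90). The members did not form a single pattern: r between pairs ran from 0.22 for Dusp1 with Spred1 to 0.94 for Dusp6 with Spry4.

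Males and females of the atlas differed in 4 of 9 members, beside 41.1% of all genes, so a share near the background. Dusp4 was higher in males by a log2 difference of 0.26 ± 0.08 (SE; 10.0 ± 3.28 against 8.44 ± 3.11 CPM, SD, n = 46 each). Dusp6, Spry4 and Spry2 were lower in males, by −0.18 ± 0.07, −0.18 ± 0.07 and −0.09 ± 0.03. With the gene-length slope as a covariate Dusp6 (−0.15) and Spry4 (−0.16) no longer passed. Dusp6 was also lost without the low-count filter and without replicate 1 or 2, Spry4 without replicate 1 or 5. All 6 striatal markers were lower in males (median sum 135 CPM, 93.7 to 407, against 460.3 CPM, 117 to 1180, in females), and all 7 blood markers were higher (121 CPM, 86.2 to 540.1, against 102 CPM, 58.2 to 163). Their part in the sex difference was not tested. At ZT6 in the other table, 3 of 9 differed, beside 58.1% of all genes: Dusp1 at 0.28 ± 0.07, Dusp6 at −0.10 ± 0.04 and Spred1 at −0.08 ± 0.03 (male minus female). With the gene-length slope as a covariate 0 of these 3 passed. Dusp1 was then at 0.30, close to its 0.28 without the covariate, while Dusp6 (0.09) and Spred1 (0.16) changed sign. The median slope was lower in males in each set and light cycle, so this fit cannot fully tell sex and slope apart. There 4 of 6 striatal markers were lower in males (203 CPM, 107 to 1024, against 329.9 CPM, 105 to 1110) and 5 of 7 blood markers higher (129 CPM, 63.5 to 378, against 72.0 CPM, 39.3 to 169), and their part was not tested either.

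The feedback genes differed between the light cycles in the calorimetry set. After entrainment to 11:11, all 9 were higher at ZT6 than after 12:12, in mice collected in constant darkness (edgeR quasi-likelihood test, adjusted p from 1.45e-07 for Spry4 to 0.0401 for Dusp1). Of all 18841 genes tested, 19.6% passed this test and 10.4% passed it as higher. The median log2 difference of the members was 0.27, beside −0.01 over all genes. This contrast weighs sexes and genotypes equally, over 31 libraries on 11:11 and 32 on 12:12. Whether the mice were at the same phase of their daily rhythm after both light cycles was not tested. Cycle length and that phase cannot be told apart here.

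Dusp4 and Spry4 had the largest differences of the 9. Spry4 libraries ran from 11.6 through 19.8 to 28.3 CPM on 11:11 and from 5.30 through 14.03 to 18.3 CPM on 12:12. Of the 31 libraries on 11:11, 24 were above the median of the 12:12 group and 17 above its highest library. The means were 19.1 ± 4.70 and 13.3 ± 3.02 CPM (SD), a log2 difference of 0.52 ± 0.08 (SE). Dusp4 ran from 3.06 through 10.3 to 17.4 CPM and from 2.79 through 6.56 to 13.04 CPM, with 25 of 31 above the 12:12 median and a log2 difference of 0.56 ± 0.11. The groups overlapped in both genes, and for Dusp4 only 9 of the 31 libraries on 11:11 were above the highest on 12:12.

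The other members changed by less. Dusp6 ran from 46.7 through 79.6 to 118 CPM on 11:11 and from 45.97 through 62.6 to 86.0 CPM on 12:12, a log2 difference of 0.30 ± 0.06. Dusp5 differed by 0.39 ± 0.10, Dusp1 by 0.27 ± 0.10 and Dusp14 by 0.25 ± 0.05. The abundant upstream inhibitors changed least, by 0.20 ± 0.04 (Spred1), 0.19 ± 0.05 (Spred2) and 0.18 ± 0.03 (Spry2), yet 27, 24 and 26 of their 31 libraries on 11:11 were above the 12:12 median. The ranges of the light cycles overlapped in every member. The call of Dusp1 was lost, at a difference of 0.27, in a fit of the calorimetry libraries alone (edgeR adjusted p = 0.0506) and in each fit that left out a replicate number (differences from 0.21 to 0.31, edgeR adjusted p from 0.0560 to 0.208).

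**Figure D3:**
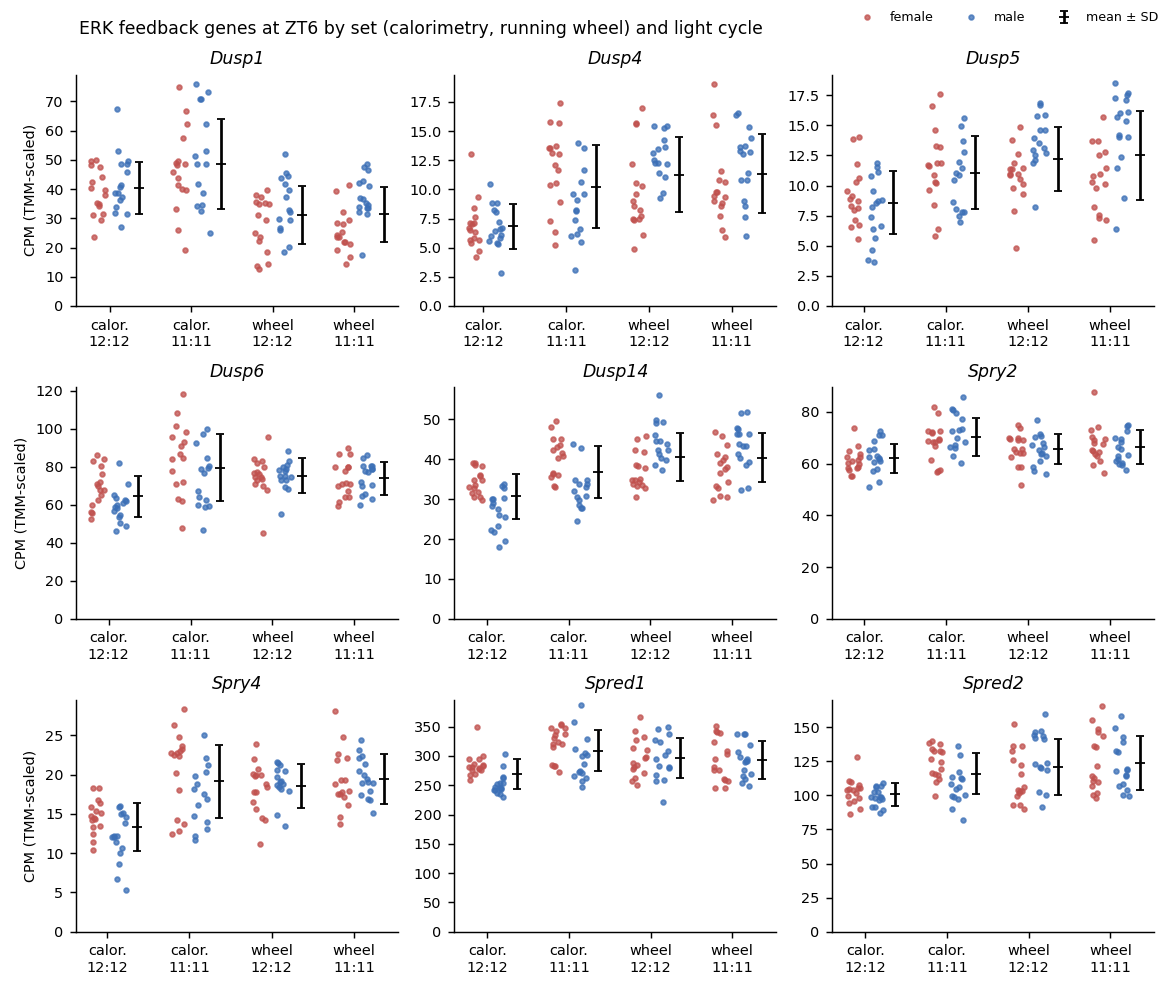
Level of each of the 9 genes (CPM) at ZT6 in the calorimetry and running wheel sets on 11:11 and 12:12, with a point for each library and the mean with bars of 1 SD (n = 31, 32, 32 and 31). In the calorimetry set the 11:11 libraries are shifted upward in every gene. In the wheel set the light cycles overlap.

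The gene-length slope, used as a proxy for RNA quality, and blood markers moved with the light cycle in these calorimetry libraries. This slope is that of each library's expression deviation on log2 gene length, and it falls when long transcripts are under-represented. Whether it reflects RNA quality here was not tested. In calorimetry females the median slope was 0.044 (0.013 to 0.085, n = 16) on 11:11 and −0.001 (−0.037 to 0.023, n = 16) on 12:12. In calorimetry males it was −0.118 (−0.196 to −0.045, n = 15) and −0.150 (−0.204 to −0.117, n = 16). The slope was thus higher on 11:11 in both sexes. The sum of the 7 blood markers had a median of 93.6 CPM (44.3 to 281) on 11:11 and 168 CPM (68.6 to 378) on 12:12, and 4 of the 7 were lower on 11:11. Of 6 striatal markers 1 was lower (median sum 180 CPM, 107 to 672, against 230 CPM, 105 to 904). Higher on 11:11 were 2 of 5 excitatory neuron markers, 2 of 5 for astrocytes, 1 of 5 for oligodendrocytes, 2 of 5 for their precursors, 2 of 5 for microglia and 1 of 5 for endothelium. No inhibitory neuron or choroid plexus marker passed. Of all genes, 19.6% passed in this contrast and 10.4% passed as higher.

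With the slope as a covariate, 7 of 9 members still passed as higher on 11:11, and Dusp1 and Spred2 did not. The difference of Dusp1 was 0.27 with and without the covariate, while that of Spred2 was 0.12 against 0.19. In 40 calorimetry libraries of overlapping slope, a choice made after the data had been seen, 6 of 9 passed, and Dusp1, at a difference of 0.38, Dusp5 and Spred2 did not. That subset held 14 libraries on 11:11, of which 2 were from females, and 26 on 12:12, with median slopes of −0.114 and −0.121. The part of the markers in the result was not tested.

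Each sex showed the difference, in contrasts added after the data had been seen. In calorimetry females 7 of 9 were higher on 11:11, beside 6.69% of all genes, and Dusp1 (0.27 ± 0.14) and Dusp5 (0.33 ± 0.14) did not pass. In calorimetry males 6 of 9 were higher, beside 7.18% of all genes, and Dusp1 (0.28 ± 0.14), Dusp4 (0.36 ± 0.17) and Spred2 (0.11 ± 0.07) did not pass. Dusp4 had the widest gap between the sexes, at 0.77 ± 0.16 in females: their means were 11.8 ± 3.47 and 6.91 ± 2.10 CPM (SD, n = 16 each). Without replicate 2 none of the 9 passed in females, and without replicate 3 only Spry2 and Spred1 did in males, while the slope covariate left 3 in females. Astrocyte and microglia markers moved in opposite directions in the sexes. In males 3 of 5 astrocyte, 4 of 5 microglia and 3 of 5 oligodendrocyte precursor markers were higher on 11:11. In females 2 of 5 astrocyte and 3 of 5 microglia markers were lower, and 3 of 7 blood markers were lower in each sex. Of all genes, 13.5% passed in either direction in males and 12.3% in females. The astrocyte sum had a median of 988 CPM (902 to 1180) on 11:11 and 823 CPM (572 to 1189) on 12:12 in males, and of 810.0 CPM (759.6 to 918) and 895 CPM (806 to 1084) in females. The part of these markers was not tested. The test of the sex difference itself, on the members, passed in 0 of 9 members, beside 3.91% of all genes and with 0 at an unadjusted p under 0.05. Over both sets the same test also gave 0 of 9, beside 5.54% of all genes, with Spred2 nearest at −0.19 ± 0.06 (males minus females; edgeR adjusted p = 0.0581). Spred2 passed there with RLE scaling, with DESeq2 and with a replicate block.

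In the running wheel set, collected in the light-dark cycle, the light cycle made no detectable difference to the members. The log2 difference lay between −0.02 (Dusp6) and 0.07 (Spry4), and 0 of 9 passed, beside 0.069% of all genes, with 0 of 9 at an unadjusted p under 0.05. The 95% intervals give the sizes that the wheel libraries allow: −0.08 to 0.21 for Spry4, −0.20 to 0.23 for Dusp4 and −0.14 to 0.09 for Dusp6. The slopes of the wheel libraries were alike on the light cycles, with medians of 0.103 and 0.093 in females and 0.023 and 0.028 in males. None of the markers of any cell type passed there either.

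The difference between the sets was tested as an interaction. The light cycle difference was larger in calorimetry than in the wheel set in 6 of 9 members, beside 2.74% of all genes: Dusp4 by 0.55 ± 0.16, Spry4 by 0.45 ± 0.11, Dusp6 by 0.32 ± 0.08, Dusp14 by 0.26 ± 0.07, Spred1 by 0.21 ± 0.05 and Spry2 by 0.16 ± 0.05. Dusp5 (0.36 ± 0.14), Dusp1 (0.26 ± 0.14) and Spred2 (0.15 ± 0.06) did not pass. The count changed with the libraries and with the slope covariate: it was 2 (Spry2 and Spry4) with that covariate, and from 1 to 6 when a replicate number was left out. The differences stayed above 0 in every alternative run, from 0.48 to 0.61 for Dusp4, 0.36 to 0.56 for Spry4, 0.25 to 0.41 for Dusp6, 0.22 to 0.34 for Dusp14, 0.15 to 0.24 for Spred1 and 0.13 to 0.23 for Spry2. Averaged over both sets, 8 of 9 were higher on 11:11, beside 7.49% of all genes, and 2 of 9 with the slope covariate.

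**Figure D4:**
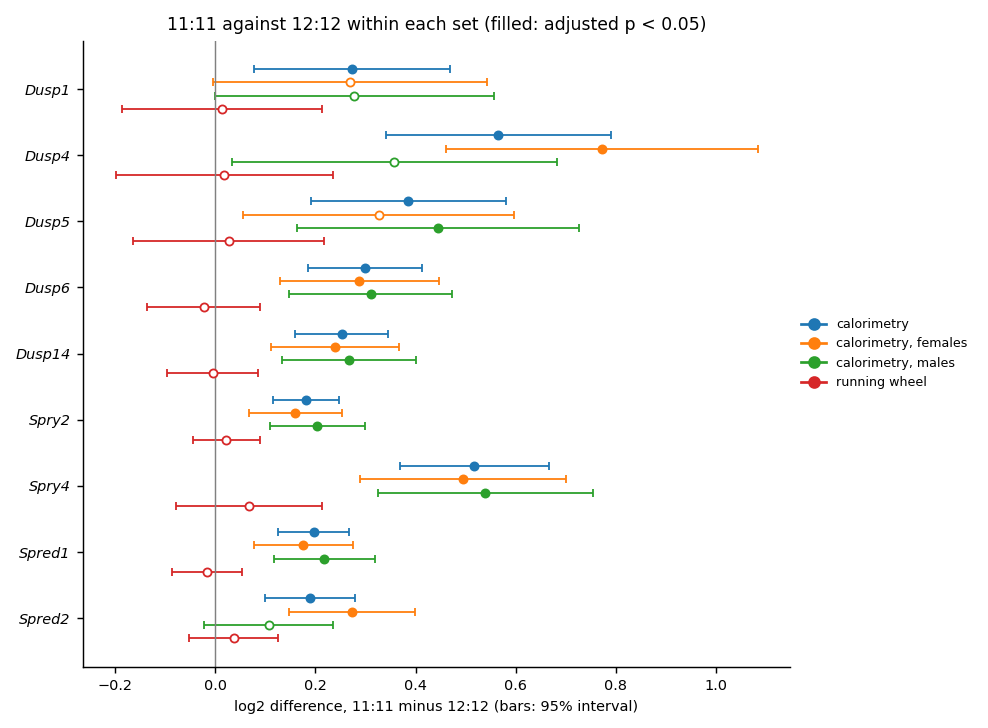
Log2 difference of 11:11 minus 12:12 for each of the 9 genes with 95% intervals (filled markers passed the test), in the calorimetry set, in its females and males apart, and in the running wheel set. The calorimetry differences lie above 0 in every gene, between 0.18 and 0.56 over both sexes, and the wheel differences lie between −0.02 and 0.07.

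The pathway lists were read in calorimetry beside 10.4% of all genes higher on 11:11 and 19.6% different in either direction. The lists, here and for the rhythm, were not refitted with the slope covariate or the other alternatives. Of the 29 ERK targets, 18 were higher, 0 lower and 11 did not pass, with a median log2 difference of 0.23. Egr1 was higher by 0.58 ± 0.09, Arc, a synaptic immediate-early gene, by 0.62 ± 0.14, Nr4a3 by 0.52 ± 0.10 and Etv5 by 0.22 ± 0.04. Of 14 receptors 6 were higher and 0 lower, the higher ones including Igf1r (0.24 ± 0.03), Fgfr3 (0.23 ± 0.05), Pdgfra (0.13 ± 0.03) and Erbb3 (0.26 ± 0.06). The cascade was mixed, with 5 of 26 higher and 3 lower: Rps6ka2 differed by 0.18 ± 0.04, Araf by −0.14 ± 0.03 and Hras by −0.15 ± 0.04. Of 15 other brakes 3 were higher and 2 lower, with Spry3 at 0.28 ± 0.06, the receptor inhibitor Errfi1 at 0.24 ± 0.04 and the Raf inhibitor Pebp1 at −0.15 ± 0.03.

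In the remaining lists, of 13 other phosphatases 2 were higher, Dusp7 (0.14 ± 0.03) and Dusp18 (0.16 ± 0.05), and 2 lower, Dusp8 (−0.08 ± 0.03) and the sparsely counted Ptpn7. Of 16 ligands Fgf10 was higher (0.31 ± 0.07) and Ntf3 lower (−0.68 ± 0.23). Of 11 p38 and JNK genes 4 were higher. In the wheel set 0 of the 124 listed genes passed. In calorimetry males alone 6 of the 29 ERK targets were higher on 11:11 and 1 lower, beside 7.18% of all genes higher. In calorimetry females alone 12 were higher and 0 lower, beside 6.69% of all genes higher.

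The sets themselves also differed in the members, at a share close to the background. Calorimetry libraries had more Dusp1 than wheel libraries, by a log2 difference of 0.53 ± 0.07, and less Dusp4 (−0.43 ± 0.08), Dusp5 (−0.33 ± 0.07), Dusp14 (−0.28 ± 0.03), Spry4 (−0.26 ± 0.05) and Spred2 (−0.18 ± 0.03), 6 of 9 beside 62.2% of all genes. Dusp1 averaged 48.6 ± 15.4 and 40.3 ± 9.003 CPM in calorimetry on 11:11 and 12:12, and 31.4 ± 9.44 and 31.2 ± 10.0 CPM in the wheel set (SD, n = 31, 32, 32 and 31). It was the only member higher in calorimetry on both light cycles, though on 12:12 its call was lost with the slope covariate. With the slope covariate 2 of the 9 passed, Dusp1 and Spred1, and Spry4 (0.05), Spred1 (0.20) and Spred2 (0.05) changed sign. All 6 striatal markers and 3 of 4 choroid plexus markers were lower in calorimetry and 5 of 7 blood markers higher, and their part in the set difference was not tested.

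The lower levels in calorimetry were mostly those of the 12:12 mice, in contrasts added after the data had been seen. On 12:12, 9 of 9 differed between the sets, beside 53.1% of all genes, with Dusp1 higher and the other 8 lower. Dusp4 at −0.71 ± 0.11, Dusp5 at −0.51 ± 0.10, Spry4 at −0.49 ± 0.08 and Dusp14 at −0.41 ± 0.05 were the farthest apart. The call of Spry2 was lost with RLE scaling, with DESeq2 and without the low-count filter. It was also lost without replicate 1, 2 or 4 and without the library rich in ribosomal RNA-like genes. On 11:11, 4 of 9 differed, beside 49% of all genes: Dusp1 (0.66 ± 0.10) and Spry2 (0.08 ± 0.03) were higher, Dusp14 (−0.15 ± 0.05) and Spred2 (−0.11 ± 0.05) lower. With the slope covariate 1 member, Dusp14, passed on 12:12, and the call of Dusp1 was lost. On 11:11 Dusp1 (0.67) passed with it, while Spry2 (0.06) and Dusp14 (−0.06) did not, Spred2 changed sign (0.09), and Dusp6 (0.25) and Spred1 (0.27) passed. These contrasts share libraries with those of the light cycle.

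No difference of the 9 genes by Snord116 genotype was detected. In HET/WT against WT/WT 0 of 9 passed, beside 0.0425% of all genes, with log2 differences from −0.08 (Spry4) to 0.07 (Dusp14) and 0 of 9 at an unadjusted p under 0.05. WT/TG and HET/TG against the same WT/WT libraries also gave 0 of 9 each, beside 0.0159% and 0.0478% of all genes, with 0 at an unadjusted p under 0.05 in both. Dusp6 shows the overlap: the lowest, median and highest library were 46.7, 71.2 and 98.2 CPM in WT/WT, 45.2, 71.5 and 108 CPM in HET/WT, 54.6, 73.2 and 96.0 CPM in WT/TG and 45.97, 77.8 and 118 CPM in HET/TG. The 95% intervals for HET/WT ran from −0.10 to 0.13 for Dusp6, from −0.23 to 0.07 for Spry4 and from −0.18 to 0.22 for Dusp1. The counts were 0 as well without the library that goes against its label. None of the 124 listed pathway genes passed in any of the 3 genotype comparisons.

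The genotype difference was also compared between the light cycles. In HET/WT against WT/WT, Dusp1 was at 0.31 ± 0.14 on 11:11 and at −0.27 ± 0.14 on 12:12, and in neither cycle did any of the 9 pass (beside 0.0212% and 0.0265% of all genes). The Dusp1 interaction of 0.59 ± 0.20 did not pass either (edgeR adjusted p = 0.498). Dusp6 was at 0.17 ± 0.08 and −0.14 ± 0.08, with an interaction of 0.30 ± 0.11 (edgeR adjusted p = 0.590). Spry2 was the third member with an unadjusted p under 0.05, at 0.15 ± 0.07. No gene of the 18841 passed in this interaction, or in those of the HET/WT difference with sex and with set. Without the low-count filter Dusp1 and Dusp6 passed in it (edgeR adjusted p = 2.87e-13 and 0.00135): the differences were alike, at 0.59 and 0.31, while their standard errors were 0.07 and 0.06 in place of 0.20 and 0.11.

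**Figure D5:**
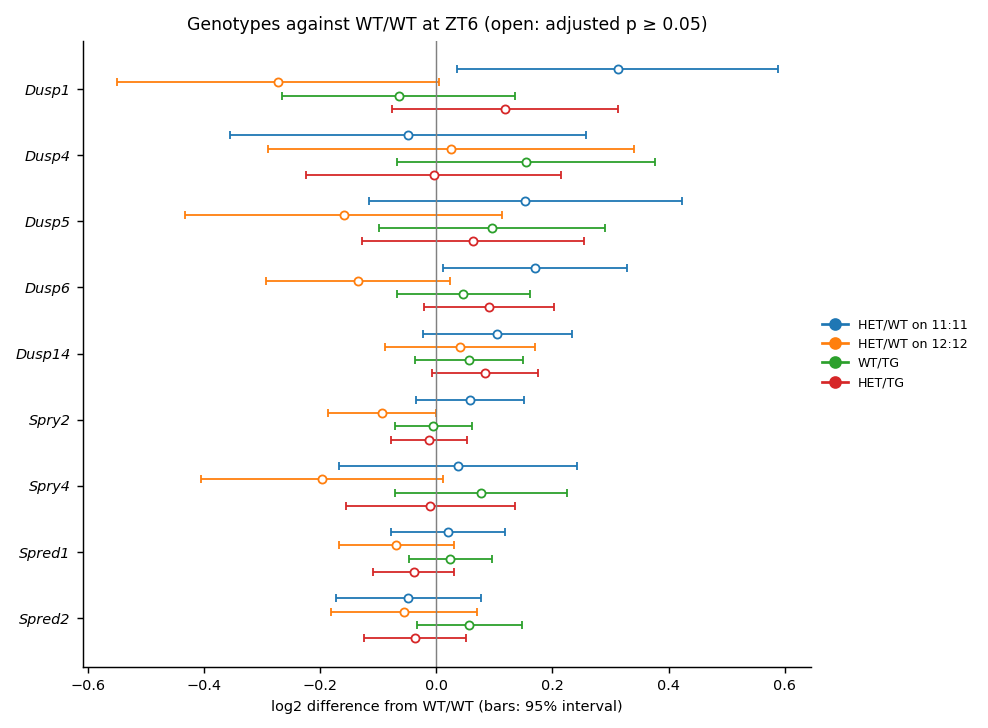
Log2 difference from WT/WT for each of the 9 genes at ZT6 with 95% intervals, for HET/WT on 11:11 and on 12:12 apart and for WT/TG and HET/TG, averaged over the other factors. Every marker is open, since none passed the test, and the intervals that exclude 0 are those of Dusp1 and Dusp6 in HET/WT on 11:11 and of Spry2 in HET/WT on 12:12.

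At ZT6 likeness was taken over the 32 group means. Of the 27 genes found there (3 for each member), 1 was also found for the same member in the atlas, Nr4a1 for Dusp6. Dusp14 was closest to Egr1 (r = 0.94), Dusp4 to Irs2 (0.92), Dusp5 to Sik1 (0.91) with Nr4a1 next (0.88), and Dusp6 to Trib1 (0.90) with Egr1 next (0.81). Spred2 was closest to Fmnl1 (0.93), Spry4 to Edrf1 (0.89), Dusp1 to Foxq1 (0.87), Spred1 to Serpinb8 (0.87) and Spry2 to Tgfb3 (0.69). Set and light cycle differ between these groups. Pairs of members ranged from r = −0.37 for Dusp1 with Spred2 to 0.87 for Dusp4 with Spred2.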

How the data were processed

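Total RNA of mouse left prefrontal cortex was extracted with an AllPrep kit, depleted of ribosomal RNA and sequenced on a NovaSeq after a directional NEBNext Ultra II preparation, per the labels' protocols. The authors deposited 2 tables of raw read counts per gene. Trim Galore, STAR, SAMtools, limma and mm10 are named, without versions, in the submitters' processing notes. The counting tool, annotation and strand setting were not given in the sources used here. The 9 genes and all lists were chosen with earlier results of these data known. Symbols came from GENCODE vM21 (55227 of 55487 identifiers matched), and promoter windows from RefSeq (7 of the 9 genes matched).

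Every count column was used. Each table was fitted alone in R 4.3.3 with edgeR 4.0.16 (filterByExpr, TMM, robust quasi-likelihood tests, Benjamini-Hochberg adjustment over the 17193 or 18841 genes tested, threshold 0.05). The atlas model had a 24 h cosine and sex. The ZT6 model had a mean for each of 32 groups, and contrasts weighted the other factors equally. CPM are TMM-scaled, log2 differences carry standard errors, and intervals cover 95%. A comparison passed or was called where its adjusted p was under 0.05. The fits were tested on simulated counts. No pair of libraries was identical. Deviations of same-numbered libraries of different groups had mean correlations near 0. These were 0.0052 in the atlas, against −0.00089 for other numbers, and 0.0082 at ZT6, against −0.0027. The correlation was over 0.1 in 131 of 666 same-numbered pairs in the atlas and in 177 of 1922 at ZT6. No matching count was made for other pairs. The pathway examples were taken from the called genes with the smallest p of each list, up to 4, and not all of these are named. Like genes are the protein-coding genes with the highest Pearson r over group means. Alternatives were RLE scaling, no low-count filter, DESeq2 1.42.0, a replicate block, and the gene-length slope of each library (a proxy for RNA quality) as a covariate. Fits without each replicate number or each doubtful library were also run. The steps between times, the set contrasts on each light cycle, the calorimetry contrasts by sex, the libraries of overlapping slope and the relation to Egr1 were added after the data had been seen. P-values measure the spread between the labelled biological replicates.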

Additional observations from a re-analysis of the deposited data

Results flagged for a closer look

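Single libraries that stood apart from the rest of their group were sought in every group of 4 to 6 libraries. The measure is the gap from the highest or lowest library to its nearest neighbour as a share of the group's whole range of log2 CPM. Of 414 combinations of gene and group, 24 (5.8%) exceeded the 95% critical value, where chance gives about 5%, with 12 at the low end and 12 at the high end.

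In the atlas, 1 male library at ZT21 (replicate 3) was the highest for Dusp1 (gap share 0.74, 38.8 CPM), Dusp14 (0.835, 49.3 CPM) and Spry2 (0.743, 76.6 CPM). A female library at ZT21 (replicate 4) was the lowest for Dusp14 (0.788, 23.8 CPM) and Spry2 (0.734, 45.2 CPM). A female library at ZT0 (replicate 6) was the lowest for Dusp6 (0.636, 51.1 CPM) and Dusp14 (0.633, 23.9 CPM). The others were single genes in single groups: Dusp5 lowest in males at ZT12 (0.688), Dusp6 highest in females at ZT6 (0.685), and Spry2 lowest in females (0.773) and highest in males (0.773) at ZT12. Spry4 was highest in a male at ZT3 (0.639) and Spred1 in a female at ZT9 (0.648).

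At ZT6 the gap share was 0.931 for Dusp1 (highest) and 0.946 for Spred1 (highest) in wheel HET/TG females on 11:11, in different libraries. In the wheel males on 11:11 it was 0.882 for Dusp4 (lowest, WT/WT), 0.895 for Spry2 (highest, WT/WT) and 0.888 for Dusp5 (lowest, HET/TG). In wheel females it was 0.923 for Dusp6 (highest, WT/WT on 11:11), 0.853 for Spry4 (lowest, WT/TG on 11:11) and 0.85 for Spry4 (lowest, HET/WT on 12:12). In calorimetry it was 0.856 for Spry4 and 0.871 for Spred2 (both lowest, HET/WT females on 11:11, different libraries) and 0.856 for Spred1 (highest, WT/WT males on 12:12).

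The light cycle difference of 6 genes differed between the calorimetry and wheel sets by the interaction test: Dusp4 (log2 0.55), Spry4 (0.45), Dusp6 (0.32), Dusp14 (0.26), Spred1 (0.21) and Spry2 (0.16). With the gene-length slope as a covariate 2 of the 6, Spry2 and Spry4, still passed.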

How the results depend on the processing

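The rhythm passed in 8 or 9 of the 9 genes and the calorimetry light cycle difference in 7 to 9 under each alternative fitted to all calorimetry libraries. On average, same-numbered libraries of different groups did not deviate together. A replicate block gained 1 gene (Spred2) for light cycle by sex and raised atlas sex from 4 to 5 (Spred1), and it changed no other call. A further 69 values changed sign in 1 or more alternatives, 113 times in all, where neither the reported fit nor that alternative called them. Their size reached 0.16 in the reported fit and 0.32 in the alternatives. With the length slope as a covariate, atlas sex lost Dusp6 and Spry4 and gained Spred1, and the count was 1 from ZT3 to ZT6, 2 for the light cycle over both sets, 2 for its difference between sets, 3 in calorimetry females, 2 for the sets, 1 for the sets on 12:12 and 0 for sex at ZT6. The sign reversed there for the sets in Spry4 (0.055), Spred1 (0.20) and Spred2 (0.046), on 11:11 in Spred2 (0.093), on 12:12 in Spred1 (0.12) and Spred2 (0.00026), and for sex at ZT6 in Dusp6 (0.094) and Spred1 (0.16). Without the low-count filter the count was 1 from ZT3 to ZT6 and from ZT21 to ZT0, 1 (Dusp4) for light cycle by sex in calorimetry and 2 over both sets, 8 for the sets on 11:11 and 5 for sex at ZT6. The HET/WT tests then gave 2 by light cycle, 1 by sex, 2 by set, 2 on 11:11 and 1 on 12:12, all Dusp1 or Dusp6. RLE scaling and DESeq2 each gave 1 for light cycle by sex, 8 for the sets on 12:12 and 4 for sex at ZT6. Without the library rich in ribosomal RNA-like genes, Spry2 was lost for the sets on 12:12. Spred2 was lost there for the sets on 11:11 and Dusp6 for sex at ZT6. Leaving out each replicate number in turn gave 2 to 5 for atlas sex, 4 or 5 from ZT0 to ZT3 and 0 to 3 from ZT3 to ZT6. The count was then 0 to 2 from ZT6 to ZT9, 5 to 8 from ZT12 to ZT15 and 0 to 3 from ZT21 to ZT0. Such omissions gave 3 to 8 for the light cycle over both sets, 1 to 6 for its difference between sets and 2 to 7 in calorimetry males. They gave 0 to 8 in calorimetry females and 2 to 5 for the sets on 11:11. The cause was not tested for any of these. Over all genes, the slope covariate took the calls from 2383 to 1139 for the light cycle, from 3684 to 2098 in calorimetry, from 1003 to 510 for its difference between sets, from 11713 to 5701 for the sets and from 10948 to 2870 for sex at ZT6. Without the filter the HET/WT calls went from 8 to 107, those of WT/TG from 3 to 76, those of HET/TG from 9 to 84 and those of the wheel light cycle from 13 to 208. Counting error was widest for Dusp4, with as few as 52 raw counts in an atlas library and 32 at ZT6, while Spred1 had at least 2906 and 2102.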

Other observations

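Libraries of the same group differed in their feedback genes together with Egr1, a relation examined after the data had been seen. Across deviations from the group mean, Pearson r with Egr1 was positive for all 9 genes in the 92 atlas libraries, from 0.49 for Dusp4 (Spearman rho 0.45) to 0.85 for Dusp6 (rho 0.78). In the 126 ZT6 libraries it ran from 0.44 for Spry2 (rho 0.38) to 0.80 for Dusp6 (rho 0.76). Of the 18 relations, most permutation p-values were 1e-05, the smallest that 100000 permutations give, and the largest Benjamini-Hochberg adjusted value was 9e-05 for r and 2e-04 for rho. Leaving out the 2 libraries farthest from the median of Egr1 gave r of 0.42 for Dusp4 and 0.81 for Dusp6 in the atlas and of 0.40 for Spry2 and 0.78 for Dusp6 at ZT6. The relation was weak within the wheel set for Dusp1 (r = 0.18, against 0.75 in calorimetry) and Spry2 (0.22, against 0.61). Over all other genes tested, the median r with Egr1 was −0.01 in the atlas, and 2.89% of genes there and 1.86% at ZT6 were at or above the lowest member. These points share libraries, depth and dissection.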
